A study of Mus musculus with 8 samples.

Results

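Coronins are actin-binding proteins built around a propeller of WD repeats, and in mammals they fall into type I (Coro1a, Coro1b, Coro1c, Coro6), type II (Coro2a, Coro2b) and the long type III protein Coro7. Type I members bind filamentous actin and the Arp2/3 complex, which nucleates branched actin, and help cofilin to take filaments apart at the front of moving cells. Type II members are less well understood. Coro2b is best known in neurons, and Coro2a has been described in mouse macrophages as a subunit of the nuclear receptor corepressor (NCoR) complex that senses actin. Coro2a and the rest of the family were examined here across 8 mouse mammary tumors. The 7 family members were taken from a table of 35539 gene IDs. Coro2a was picked because its level differed between the genotypes of these same tumors, so its genotype difference is given as a description with no test, and the other 6 genes were added because they belong to the family.

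Bulk frozen mammary tumor tissue was sequenced as 4 control tumors (tumors 1 to 4, Brca1f/f Trp53+/-) and 4 HMMR-Tg tumors (tumors 5 to 8, HMMR Tg/Tg Brca1f/f Trp53+/-), the mice being matched for age. In the study's design every mouse carried Blg-Cre, a Cre recombinase driven by the β-lactoglobulin promoter of the lactating mammary epithelium, which deleted part of Brca1 in that epithelium of parous mice of mixed background, and every mouse was heterozygous for Trp53. HMMR-Tg mice also carried human HMMR, a microtubule-associated protein of the mitotic spindle, in both Rosa26 alleles behind a loxP-flanked stop cassette. The labels do not say whether each tumor came from its own mouse, so p-values measure the spread between tumors, and the values are TPM, a transcript abundance per length scaled to a fixed total in each tumor, which keep no record of sequencing depth.

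The tumors carried epithelial transcripts of both the luminal and the basal marker lists. The 8 basal epithelial markers summed to 105 to 1024 TPM in the control group and 163 to 1309 TPM with the transgene, and none was at 0. The 9 luminal epithelial markers (among them the keratins Krt8 and Krt18) summed to 3225 to 6547 TPM in the control group, against 2518 to 5558 TPM with the transgene, and none was at 0. Skeletal muscle markers ran far apart between tumors of the same genotype, with sums of 13.4 to 399 TPM among control and 16.1 to 488 TPM among HMMR-Tg tumors, and Myh2, Myh4 and Tnnc2 at 0 in at least 1 tumor. Mouse Hmmr, counted against the mouse genome so that human HMMR reads enter only where they match, averaged 12.5 ± 2.52 TPM in tumors 1 to 4 and 16.5 ± 2.94 TPM in tumors 5 to 8 (SD, n = 4 each, a difference of 0.37 on the log2(TPM + 1) scale, limma adjusted p = 0.9998).

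Coro2a lies on the minus strand of chromosome 4 (46549809 to 46615074 in mm9) and encodes a protein of 543 residues with 3 coding transcripts in the annotation. Its RefSeq promoters are shown because the gene-level values of Coro2a cannot say which of its start sites was used, and because the stretches in front of the 2 starts differ in composition. Each line gives the 250 bases in front of an annotated start, 5′ to 3′, on the minus strand of GRCm38.p6, a later build than the mm9 of the values, with GC boxes (GGGCGG on either strand) in capitals.
Coro2a first start, chr4:46601930-46602179: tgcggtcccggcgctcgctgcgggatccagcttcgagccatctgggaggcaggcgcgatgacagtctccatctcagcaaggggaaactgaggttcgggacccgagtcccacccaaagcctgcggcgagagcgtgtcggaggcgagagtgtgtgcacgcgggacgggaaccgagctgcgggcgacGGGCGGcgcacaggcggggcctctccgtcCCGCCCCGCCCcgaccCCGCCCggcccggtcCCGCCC
Coro2a second start, chr4:46566441-46566690: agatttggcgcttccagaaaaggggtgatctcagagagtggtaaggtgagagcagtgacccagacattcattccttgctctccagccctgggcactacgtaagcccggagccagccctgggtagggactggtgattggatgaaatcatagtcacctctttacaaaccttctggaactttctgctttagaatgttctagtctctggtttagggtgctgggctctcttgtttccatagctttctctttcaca
Coro2b start, chr9:62537045-62537294: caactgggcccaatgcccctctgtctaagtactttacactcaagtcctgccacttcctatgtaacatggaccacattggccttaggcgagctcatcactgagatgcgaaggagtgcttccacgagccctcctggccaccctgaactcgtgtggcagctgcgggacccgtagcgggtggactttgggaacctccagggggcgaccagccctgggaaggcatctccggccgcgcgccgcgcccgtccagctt
The first Coro2a stretch was 73.6% G and C, had 33 CpG dinucleotides and held 5 GC boxes, the farthest 66 bases before the start and an adjoining pair sharing 1 base. The second had 49.2% G and C, 3 CpG dinucleotides and no GC box, and the stretch in front of Coro2b, the closest relative of Coro2a, had 62.0%, 15 and none. Among 32851 RefSeq promoter stretches of this length the median was 52.4% G and C and 32.7% held a GC box. These letters describe the stretches and do not show binding.

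Coro2a was the most abundant coronin of the control tumors and ranked behind Coro1a, Coro1b and Coro1c in HMMR-Tg tumors 5 and 7. It was measured at 266, 401, 207 and 626 TPM in control tumors 1 to 4 and at 33.9, 99.9, 36.7 and 147 TPM in HMMR-Tg tumors 5 to 8. The genotypes did not overlap: the lowest control tumor was tumor 3 (207 TPM) and the highest HMMR-Tg tumor was tumor 8 (147 TPM). The means were 375 ± 186 TPM and 79.4 ± 54.5 TPM (SD, n = 4 each), 4.72 times higher in control tumors, with a difference of -2.37 on the log2(TPM + 1) scale. Of the 14835 genes tested (those averaging 1 TPM or more), 2.23% had genotypes that did not overlap and 1.19% did so with HMMR-Tg tumors lower. Coro2a was chosen from this contrast, so nothing is read from its place among them. Leaving out each tumor in turn gave differences of -2.75 to -2.06. Without tumors 1, 3 and 6, those with the highest skeletal muscle scores and chosen after seeing the data, the difference was -3.12. That leaves control tumors 2 and 4, the highest for Coro2a, against HMMR-Tg tumors 5, 7 and 8.

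The level of Coro2a also varied widely inside each genotype. Its highest and lowest tumors were 18.5-fold apart, and its SD within genotypes on the log2 scale was 0.88, higher than in 86.6% of the genes tested. Tumors 5 and 7 were lowest, tumors 6 and 8 stood between them and the control tumors, and tumor 4 stood above the other control tumors. In a bulk tumor, fewer cells that express a gene and less RNA per cell cannot be told apart.

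**Figure D1:**
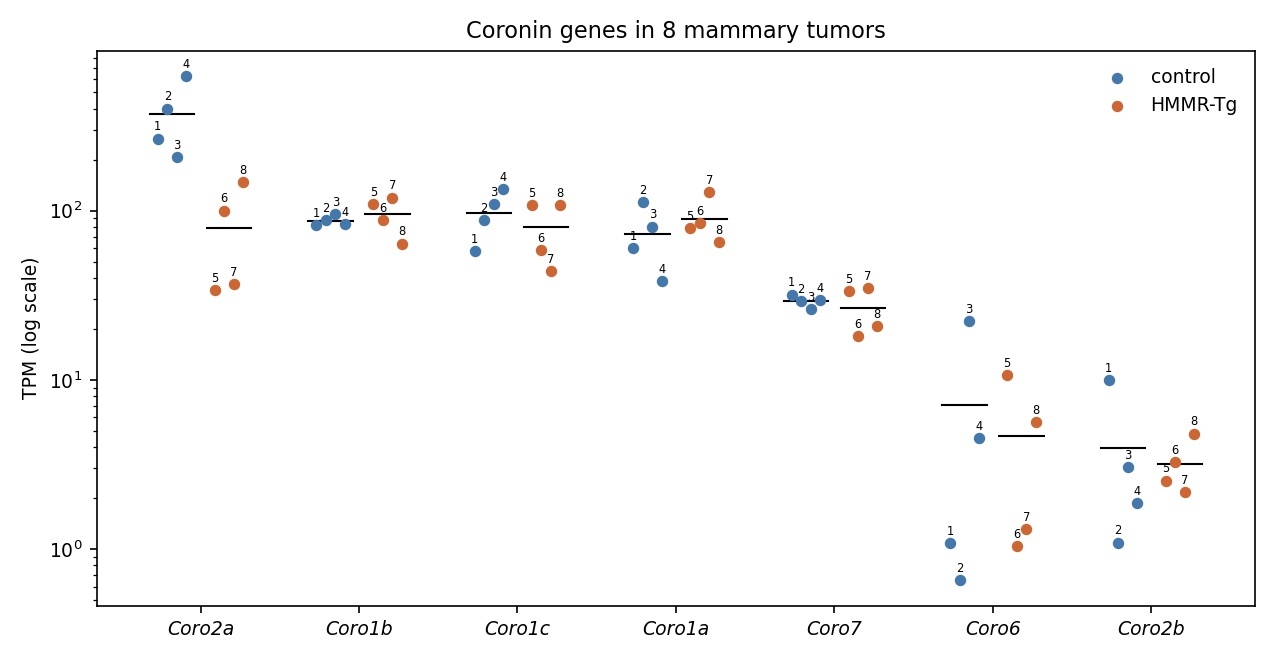
TPM of the 7 coronin genes on a log axis, with 1 point per tumor (numbered) and a black line at the mean of each genotype (n = 4 control, n = 4 HMMR-Tg). Control Coro2a values run from 207 to 626 TPM and HMMR-Tg values from 33.9 to 147 TPM, while the genotypes overlap for the other 6 genes.

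Because TPM is per length, the levels of different coronins can be ordered inside a tumor. Coro2a, Coro1a, Coro1b and Coro1c stood above Coro7 in 8 of 8 tumors, and Coro7 stood above Coro2b and Coro6 in 8 of 8. Coro2a ranked 1 in tumors 1, 2, 3, 4, 6 and 8 and ranked 4 in tumors 5 and 7, where Coro1b and Coro1a led. The order of the 3 other abundant members was not fixed: Coro1a was above Coro1b in 3 of 8 tumors, Coro1a above Coro1c in 4 and Coro1b above Coro1c in 4. Coro2b and Coro6 likewise each led in 4 tumors.

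The sum of the family includes Coro2a, which was chosen for its genotype contrast, so nothing is read from the difference in that sum. All 7 coronins together reached 509.5 to 917 TPM in the control group, against 353 to 415 TPM in the HMMR-Tg group. Coro2a made up 52.2%, 55.7%, 38.1% and 68.3% of that sum in tumors 1 to 4 and 9.0%, 28.3%, 9.99% and 35.5% in tumors 5 to 8. The other 6 members summed to 298 ± 40.8 TPM without and 299 ± 44.7 TPM with the transgene (SD, n = 4 each), so their sum differed by less than the spread between tumors.

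**Figure D2:**
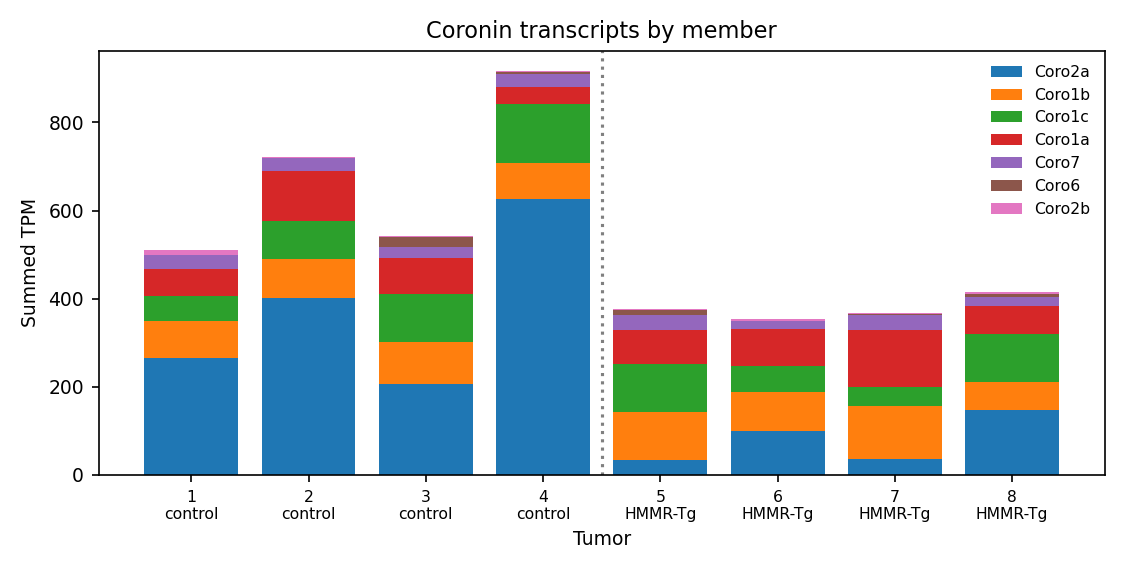
Summed TPM of the 7 coronin genes in each tumor, stacked by member, with control tumors 1 to 4 left and HMMR-Tg tumors 5 to 8 right of the dotted line. The Coro2a segment makes up 38.1% to 68.3% of the control bars and 9.0% to 35.5% of the HMMR-Tg bars.

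None of the other 6 coronins passed the test between genotypes. Under limma with Benjamini-Hochberg adjustment over 14835 genes, 0 of 6 were called, beside 0.0607% of all genes tested, and 0 of 6 had an unadjusted p under 0.05, beside 3.46% of all genes. The 6 split evenly, with 3 higher and 3 lower in HMMR-Tg tumors, and their median difference was -0.03, beside -0.01 over all genes tested. Each adjusted p was 0.9998, and the exact permutation p of the single genes (two-sided, smallest possible 0.0286) lay between 0.4 and 1. Intervals below are 95% intervals of the difference on the log2(TPM + 1) scale, HMMR-Tg minus control, and a missed threshold does not show that the genotypes had equal levels.

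Among the type I members, Coro1a is the coronin of leukocytes, where it is needed for T cell survival and trafficking. Coro1a was at 60.2, 113, 80.3 and 38.4 TPM in tumors 1 to 4 and at 78.9, 84.3, 129 and 65.0 TPM in tumors 5 to 8. Its lowest tumor was control tumor 4 and its highest was HMMR-Tg tumor 7, and the genotypes overlapped. The difference was 0.35 (SE 0.34, interval -0.42 to 1.11), between means of 72.9 ± 31.5 and 89.2 ± 27.6 TPM (SD, n = 4 each).

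Coro1b, which acts with Arp2/3 and the cofilin phosphatase slingshot at lamellipodia, was the steadiest coronin. It was at 82.5, 87.9, 95.3 and 83.2 TPM in tumors 1 to 4 and at 109, 87.8, 119 and 64.0 TPM in tumors 5 to 8. The control tumors lay close together and the HMMR-Tg tumors on both sides of them. Its SD within genotypes was higher than in only 17.0% of the genes tested, and its difference was 0.09 (SE 0.23, interval -0.42 to 0.59).

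Coro1c, a widely expressed type I member found in invasive cell protrusions, was at 57.7, 87.9, 109.5 and 134 TPM in tumors 1 to 4 and at 108, 58.6, 44.0 and 108 TPM in tumors 5 to 8. Tumors 1, 6 and 7 formed the low end and tumor 4 the high end, across genotypes. The difference was -0.32 (SE 0.36, interval -1.13 to 0.49), between means of 97.2 ± 32.2 and 79.6 ± 33.3 TPM (SD, n = 4 each).

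Coro6 is the type I coronin of skeletal muscle, where it helps to gather acetylcholine receptors at the neuromuscular junction in mice. It was at 1.08, 0.652, 22.3 and 4.53 TPM in tumors 1 to 4 and at 10.7, 1.04, 1.31 and 5.62 TPM in tumors 5 to 8. Control tumor 3 and HMMR-Tg tumor 5 stood above the rest, with 34.3-fold between the highest and the lowest tumor. Its SD within genotypes was higher than in 97.2% of the genes tested. The difference of -0.07 had an interval of -2.01 to 1.87 (SE 0.87), and its sign was not settled. It was 0.71 without control tumor 3, 0.020 without control tumor 4, 0.30 without HMMR-Tg tumor 6 and 0.24 without HMMR-Tg tumor 7.

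Coro2b, the other type II member, did not share the pattern of Coro2a. It was at 9.93, 1.09, 3.03 and 1.86 TPM in tumors 1 to 4 and at 2.54, 3.25, 2.17 and 4.81 TPM in tumors 5 to 8. Only control tumor 1 stood apart from the others. The difference was 0.02 (SE 0.49, interval -1.08 to 1.12), while the mean TPM was slightly lower in HMMR-Tg tumors (3.98 ± 4.05 in control and 3.19 ± 1.17 in HMMR-Tg, SD, n = 4 each), and the sign turned without control tumor 2 (-0.30), control tumor 4 (-0.15), HMMR-Tg tumor 6 (-0.0011) or HMMR-Tg tumor 8 (-0.15). The Coro2a protein was identical to Coro2b at 65.8% of 480 aligned residues and to the type I proteins at 44.0% to 46.3%.

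Coro7, the long coronin of the Golgi, has 922 residues with a propeller at either end and matched the other members at 31.9% to 35.9% of aligned residues. It was at 31.9, 29.3, 26.1 and 29.5 TPM in tumors 1 to 4 and at 33.4, 18.1, 34.8 and 20.7 TPM in tumors 5 to 8. The HMMR-Tg tumors fell into a pair above and a pair below the control tumors. The difference was -0.17 (SE 0.26, interval -0.75 to 0.40).

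**Figure D3:**
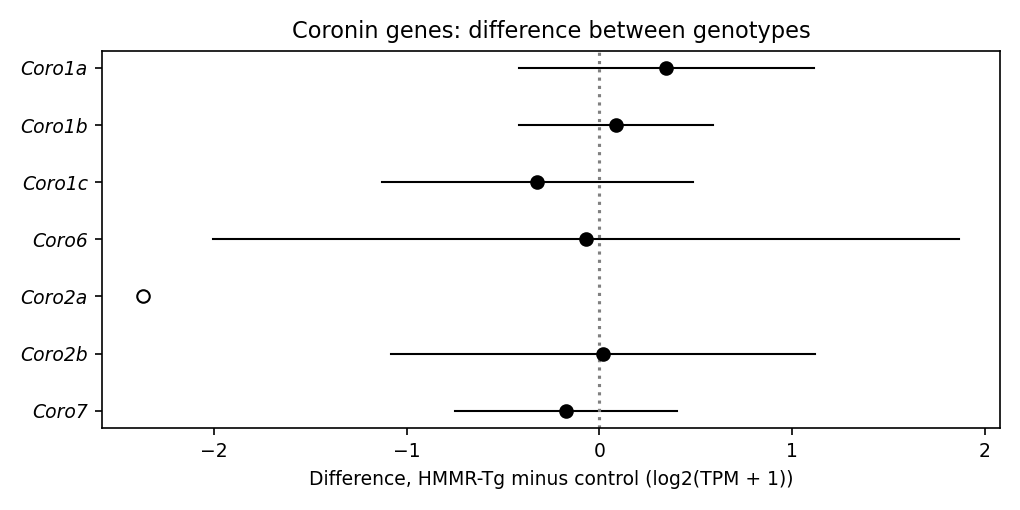
Difference between genotypes (HMMR-Tg minus control, log2(TPM + 1)) for each coronin, with 95% intervals from limma (n = 4 and 4). All 6 intervals include 0, and Coro2a (open circle, -2.37) has no interval because it was chosen from this contrast.

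Reads could be exchanged between family members only where their transcripts share sequence. Of all 31-base words in the annotated coding transcripts, 0 were shared between any pair of coronins, and words shared with other genes made up 0.20% in Coro2a, 0.26% in Coro1c, 0.72% in Coro6 and 0% in the remaining 4. Vasn and Dnaja3 overlap Coro7 on the opposite strand, and whether the counting used strand is not given in the sources used here. Vasn was at 25.4 TPM and Dnaja3 at 24.2 TPM in tumor 6, the lowest tumor for both and also for Coro7. Gm16731 overlaps Coro2a over 2866 bases, Gm17122 overlaps Coro1c and n-R5s84 overlaps Coro2b, each on the opposite strand, and these were not analysed here.

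The coronins were then set against markers of the cell types a mammary tumor can hold, to show which of them moved with the makeup of the tissue. A score (mean log2(TPM + 1) of the markers) was formed for 11 cell types, and 77 pairs of a coronin and a score were correlated over the 8 tumors. After adjustment over the 77 pairs, 2 passed by Pearson's r, both for Coro1a, and 0 passed by Spearman's rho (exact permutation tests, two-sided). An unadjusted Pearson p under 0.05 was found for 4 of the 77, near the 1 in 20 that this threshold gives without any relation.

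Coro1a moved with the leukocyte and macrophage markers. With the 12 leukocyte markers, such as Ptprc (CD45) and Itgb2, Pearson's r was 0.96 (exact permutation p = 0.000446, adjusted p = 0.0344) and rho was 0.88 (exact permutation p = 0.00724, adjusted p = 0.279). With the 8 macrophage markers, such as Csf1r and Adgre1, r was 0.96 (exact permutation p = 0.000918, adjusted p = 0.0353) and rho was 0.90 (exact permutation p = 0.00456, adjusted p = 0.279). The relation did not rest on the extreme tumors, since r was 0.85 and 0.95 without the 2 tumors farthest from the median score, nor on the genotypes, since r of deviations from the genotype means was 0.96 and 0.95. With 1 tumor left out, r stayed between 0.92 and 0.98 for both scores, but the adjusted p ran from 0.0306 to 0.222 for leukocyte and from 0.0407 to 0.210 for macrophage markers, and the leukocyte call was lost without tumor 2, 4, 5, 6 or 7 and the macrophage call without any of tumors 1 to 7. All 12 leukocyte markers had higher mean log2 values in HMMR-Tg tumors, beside 7219 of all 14835 genes tested, and none of the 12 passed the test. Their sums were 448 to 1184 TPM among control and 687 to 1426 TPM among HMMR-Tg tumors, with none at 0. Their part in the Coro1a values was not tested beyond this correlation.

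The T cell score gave a weaker relation with Coro1a. Its r of 0.76 (exact permutation p = 0.0288, adjusted p = 0.555, rho 0.67 with p = 0.0831) dropped to 0.22 without the 2 tumors farthest from the median, so it rests on those tumors. Coro1c moved the opposite way to the leukocyte score (r -0.75, exact permutation p = 0.0270, adjusted p = 0.555), and r was -0.35 without the 2 farthest tumors.

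Coro6 did not follow the skeletal muscle markers. The muscle score was highest in tumors 1, 3 and 6 (4.67, 2.82 and 5.04) and between 0.68 and 1.04 in the rest. Coro6 was at 1.08 and 1.04 TPM in tumors 1 and 6, at 22.3 TPM in tumor 3, and at 10.7 TPM in tumor 5, whose muscle score was 1.04. Over the 8 tumors r was -0.22 (exact permutation p = 0.613, adjusted p = 0.911) and rho was 0.07 (p = 0.882). Without the 2 tumors farthest from the median, r was 0.74. Without tumors 1, 3 and 6 (chosen after seeing the data) the Coro6 difference between genotypes was 0.90. That leaves control tumors 2 and 4 against HMMR-Tg tumors 5, 7 and 8.

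Coro2a passed with none of the 11 scores. Its r and rho, over the 8 tumors or without the 2 farthest, include the genotype contrast for which it was chosen, so nothing is read from them. With the leukocyte score r was -0.57 (exact permutation p = 0.135, adjusted p = 0.864, rho -0.45 with p = 0.267) and with the luminal epithelial score -0.18 (exact permutation p = 0.684, adjusted p = 0.911, rho -0.31 with p = 0.462). For deviations from the genotype means r was -0.53 with the leukocyte score, -0.67 with the luminal epithelial score and -0.90 with the Schwann cell score (-0.18 over all 8 tumors, exact permutation p = 0.672, adjusted p = 0.911, rho -0.14 with p = 0.752), and these within-genotype values were not tested. Without the 2 tumors farthest from the median score, r over the tumors was 0.15, -0.54 and -0.60 for these 3 scores. Of the endothelial markers, 6 of 6 had higher mean log2 values in HMMR-Tg tumors, beside 7219 of all 14835 genes tested, and none passed the test. Their sums of 70.1 to 75.3 TPM among control and 89.9 to 169 TPM among HMMR-Tg tumors did not overlap, with none at 0. Of all single genes tested, 1.04% did not overlap and were higher in HMMR-Tg tumors. The endothelial score was 1 of the 11. With that score Coro2a gave r -0.44 (exact permutation p = 0.282, adjusted p = 0.864) and rho -0.83 (p = 0.0154, adjusted p = 0.395). Without tumors 5 and 8, the 2 farthest from the median score, r was -0.96. The control tumors then scored 3.32 to 3.38 and HMMR-Tg tumors 6 and 7 scored 3.55 and 3.66. That r therefore carries the genotype contrast, and nothing is read from it. For deviations from the genotype means r was 0.44. The part of endothelial cells in the Coro2a values was not tested.

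**Figure D4:**
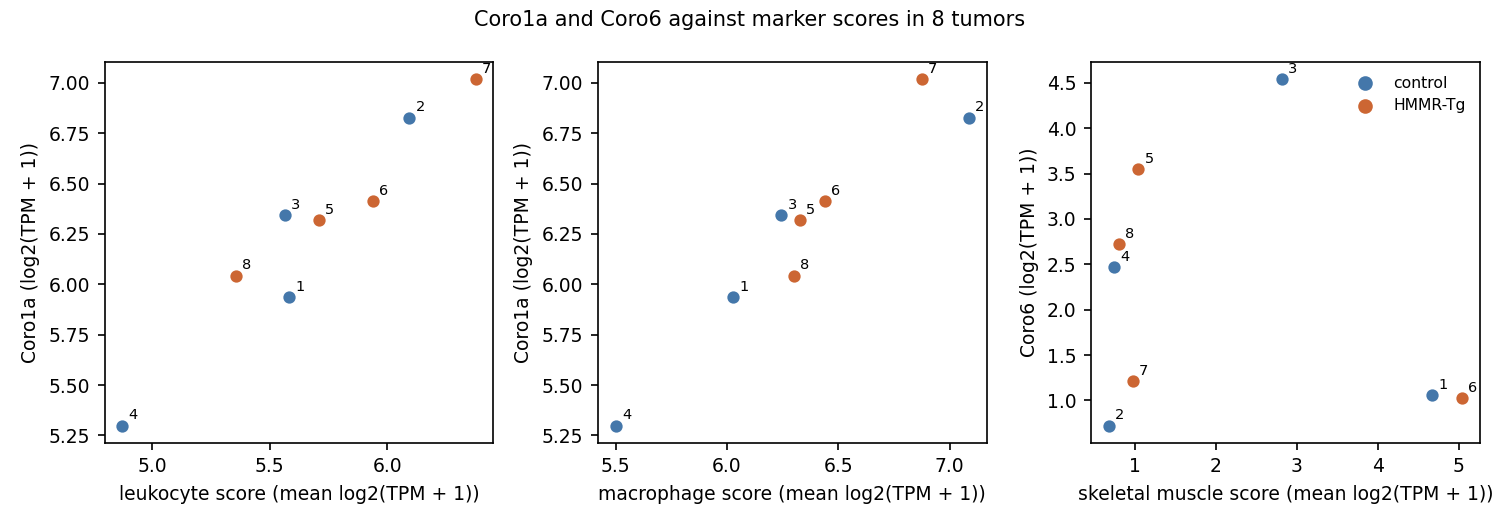
Coro1a against the leukocyte and macrophage scores and Coro6 against the skeletal muscle score, all as log2(TPM + 1), with 1 numbered point per tumor (blue control, orange HMMR-Tg). Coro1a rises along both scores (r 0.96 each), and tumors 1 and 6 have high muscle scores with Coro6 near 1 TPM.

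Genes next to each coronin were examined to show whether whole chromosome segments deviated in the same tumors. For each tumor, the deviation of a gene is its log2(TPM + 1) minus its mean over the 8 tumors, and the median was taken over tested genes within 2 Mb on either side. The 38 neighbors of Coro2a did not move with it. Their median deviation was between -0.19 and 0.20 in every tumor, while Coro2a deviated by 0.82, 1.41, 0.46 and 2.05 in tumors 1 to 4 and by -2.12, -0.58, -2.01 and -0.03 in tumors 5 to 8. Coro2a lay above 100% of its neighbors in tumors 1, 2 and 4 and above 0% of them in tumors 5 and 7. Within 5 Mb on either side it lay above 96.5%, 98.8% and 96.5% in tumors 1, 2 and 4. Coro2a was chosen for its genotype contrast, so nothing is read from its place among the neighbors.

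Coro1c, on distal chromosome 5 (114292445 to 114358767), deviated the same way as its 54 neighbors in some tumors and not in others. In tumor 4 the neighbors deviated by 0.83 and Coro1c by 0.68, in tumor 6 by -0.57 and -0.50, and in tumor 7 by -0.50 and -0.90. In tumor 2 the neighbors deviated by 0.38, with 92.6% of them above their means, and Coro1c by 0.08. In tumors 1, 3, 5 and 8 the neighbors deviated by -0.01, -0.12, -0.01 and -0.02, while Coro1c deviated by -0.52, 0.40, 0.38 and 0.38.

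Coro1a (chromosome 7, 133843287 to 133851301) and its 98 neighbors deviated together in tumor 7, by 0.74 and 0.67, with 93.9% of the neighbors above their means. That is also the tumor with the highest leukocyte score (6.38). In tumor 4, which had the lowest leukocyte score (4.87), Coro1a deviated by -0.98 and its neighbors by -0.16. Coro7 (chromosome 16, 4626133 to 4679777) and its 39 neighbors were low together in tumor 6, by -0.57 and -0.45, with 92.3% of the neighbors below their means.

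The 72 neighbors of Coro6 (chromosome 11, 77275913 to 77283986) deviated by 0.41 in tumor 3 and by 0.34 in tumor 5, the tumors with the most Coro6. Coro6 itself deviated by 2.38 and 1.39 there, above 100% of its neighbors. Coro1b (chromosome 19, 4148619 to 4154035) had 108 neighbors with medians of -0.23 to 0.23. The 27 neighbors of Coro2b (chromosome 9, 62267299 to 62384851) deviated by 0.10 in tumor 1, where Coro2b deviated by 1.43.

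**Figure D5:**
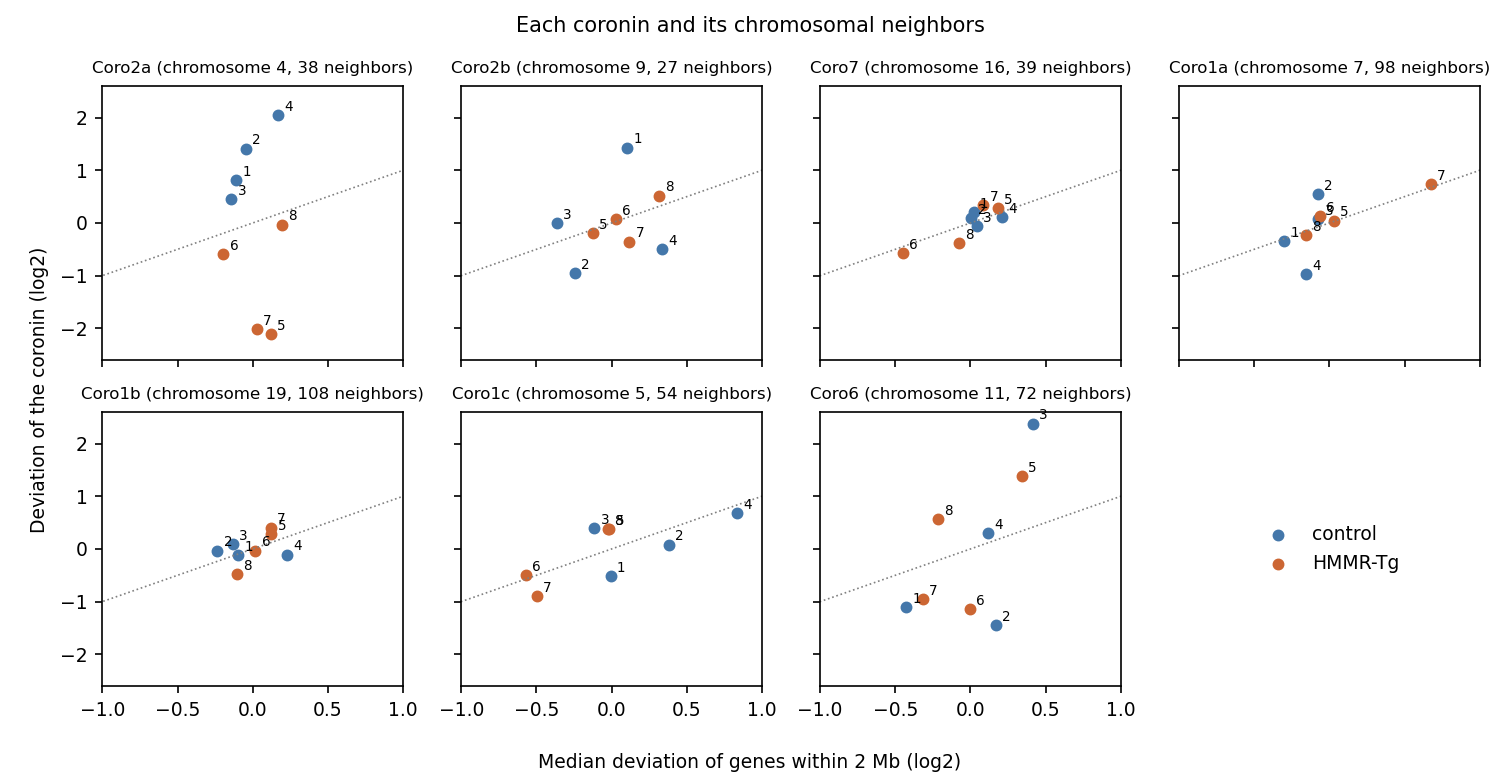
Deviation of each coronin from its mean over 8 tumors against the median deviation of the tested genes within 2 Mb on either side (log2, numbered by tumor, dotted line at equality). Coro2a runs from -2.12 to 2.05 while its neighbors stay between -0.19 and 0.20, and Coro1c lies near the line in tumors 4 and 6.

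The genes whose pattern was most like that of Coro2a were named by rank, from all tested genes with a symbol, so high values of r are a product of the choice. By Pearson's r of log2(TPM + 1) over the 8 tumors the first was Ntrk2, the receptor of brain-derived neurotrophic factor (r 0.94). Ntrk2 was at 11.9, 22.4, 7.59 and 41.5 TPM in tumors 1 to 4 and at 2.98, 8.04, 1.38 and 13.9 TPM in tumors 5 to 8. Like Coro2a, it was highest in tumor 4 among control and in tumor 8 among HMMR-Tg tumors, but here the genotypes overlapped. The next 9 were Pebp1 (0.94), Lamtor4 (0.93), Nsun5 (0.93), Rnf34 (0.92), Nrtn (0.92), Diablo (0.91), Rsph1 (0.91), Pla2g12a (0.90) and Usp30 (0.90). Of these 10 genes, 6 (Pebp1, Lamtor4, Nsun5, Rnf34, Diablo and Usp30) lie on chromosome 5 beyond 100 Mb, where 3.58% of 13934 tested genes with a position lie, although Coro2a itself is on chromosome 4. These r values include the genotype contrast for which Coro2a was chosen, so nothing is read from this share.

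Inside the genotypes the ranking was different. By r of deviations from genotype means the 10 most like genes were Cox6b1 (0.97), Ntrk2 (0.96), Ptms (0.96), Col25a1 (0.96), Scfd2 (0.95), Serp1 (0.95), Gpi1 (0.95), Chchd3 (0.95), Dmp1 (0.95) and Rplp0 (0.95), and 1 gene, Ntrk2, was on both lists. Of these 10 genes, 2 (20%), Dmp1 and Rplp0, lie on chromosome 5 beyond 100 Mb. Cox6b1, a subunit of cytochrome c oxidase, was at 444, 487, 387 and 593 TPM in tumors 1 to 4 and at 414, 612, 494 and 779 TPM in tumors 5 to 8. It was highest in tumors 4 and 8, as Coro2a was, with no lower level in the HMMR-Tg tumors.

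For the other members, the most like genes by deviations were as follows. Coro1a was nearest to Snx20 (r 1.00) and Btk (0.99), the latter a kinase of blood cells. Coro1b was nearest to Ofd1 (0.99), Zfp747 (0.98) and Arhgap17 (0.98). Coro1c was nearest to Poc5, D5Ertd579e and Abcf2 (0.97 each), and the last 2 lie on chromosome 5 but outside the distal part. Coro2b was nearest to Parp6 (0.97), Sec61a2 (0.96) and Pabpn1 (0.96), Coro6 to Psors1c2, Glrx5 and Zdhhc18 (0.98 each), and Coro7 to Bclaf3, Map4k2 and Zfand2b (0.96 each).

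The partners of coronins were taken as 5 lists: the Arp2/3 complex, its activators, its inhibitors and debranching factors, cofilin with its regulators, and the NCoR complex. Of 44 partner genes tested, 27 were higher and 17 were lower in the HMMR-Tg group, while 51.3% of all genes tested were lower. Of the 44, 0 passed the test, beside 0.0607% of all genes. An unadjusted p under 0.05 (limma) was found for 2 of 44, beside 3.46% of all genes. Genotypes did not overlap for 1 of 44 (2.27%), beside 2.23% of all genes. The direction counts of each list below stand beside the same 51.3%, and their distance from it was not tested.

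The Arp2/3 complex was split, with 5 of 10 subunits higher and 5 lower (median 0.00). The lowest p values were those of the subunits Arpc1a, with 181 ± 45.5 TPM among control and 123 ± 23.0 TPM among HMMR-Tg tumors (-0.54, SE 0.24, limma adjusted p = 0.9998), and Arpc3, at 421 ± 114 and 293 ± 46.3 TPM (SD, n = 4 each, -0.49, SE 0.24, adjusted p = 0.9998). Of the 14 activators tested, 11 were higher (median 0.14). Cttn, the cortactin gene, whose protein binds and stabilizes actin branches, was at 153, 131, 183 and 181 TPM in tumors 1 to 4 and at 237, 219, 282 and 265 TPM in tumors 5 to 8. Every HMMR-Tg tumor was above every control tumor for Cttn, with a difference of 0.63 (SE 0.19, limma adjusted p = 0.9998). Hcls1, the cortactin relative of blood cells, differed by 0.46 (SE 0.33).

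Of 4 inhibitors and debranching factors 3 were lower (median -0.16), with Gmfb, which removes actin branches, at -0.42 and Arpin, which blocks Arp2/3, at -0.23. Among cofilin and its regulators 8 of 10 were higher (median 0.08). Cfl1, the main non-muscle cofilin, averaged 1238 ± 195 TPM among control and 1497 ± 162 TPM among HMMR-Tg tumors (SD, n = 4 each, 0.28, SE 0.20), and Ssh1, a phosphatase that activates cofilin, differed by -0.41 (SE 0.27).

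The NCoR complex, which Coro2a joins in macrophages, had 4 of 6 subunits lower (median -0.12). Hdac3, its histone deacetylase, averaged 139 ± 16.3 TPM among control and 98.1 ± 28.0 TPM among HMMR-Tg tumors (SD, n = 4 each, -0.53, SE 0.24, limma adjusted p = 0.9998).

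Several of the lower partners lie in the same segment as Coro1c. On chromosome 5 beyond 100 Mb lie 6 of the 44 partners, among them Arpc1a, Arpc1b, Arpc3, Ssh1 and Limk1, a group formed after their values were seen, and 6 of 6 had lower mean log2 values in HMMR-Tg tumors (-0.54 to -0.13 for those named). So were 88.2% of all 499 tested genes of that segment, with a median difference of -0.46, beside 51.3% of all genes tested. The segment's median deviation was 0.33 in tumor 2, 0.68 in tumor 4 and -0.54 in tumor 6. It was -0.25 in tumor 7, -0.11 in tumor 5 and between -0.053 and -0.0018 in tumors 1, 3 and 8. The segment's part in the values of these partners and of Coro1c was not tested.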

How the data were processed

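RNA from 8 bulk mouse mammary tumors was sequenced by the authors, who deposited 1 table of TPM per gene ID (transcript abundance per length, scaled to a fixed total within each tumor). The study's methods give single-end reads quantified with Kallisto and tximport, whereas the submitters' processing notes name STAR 2.4.0f1, SAMtools 0.1.18, bedtools and mm9; which route made the table is not given in the sources used here, and the sources also name different RNA extraction methods (RNeasy and TRIzol). Column sums were 994001 to 994984 TPM and 21522 to 22336 IDs were above 0 per tumor. Of 35539 IDs, 25388 matched a symbol. Depth is unknown, since TPM keeps no depth.

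The 14835 genes averaging 1 TPM or more were tested on log2(TPM + 1) with limma 3.58.1 in R 4.3.3 (empirical Bayes with a mean-variance trend, two-sided, Benjamini-Hochberg, threshold 0.05), control against HMMR-Tg without covariates. A fold on this scale understates the change of low genes. Single values were also tested by exact permutation (70 arrangements) and correlations by all 40320 pairings. The limma step was tested on simulated data, with 50 genes planted at each size of difference. It recovered 8% of those at a log2 difference of 1, 36% at 1.5, 66% at 2 and 82% at 3. Most differences of 1 were therefore missed in the simulation. All planted genes entered the same adjustment, with independent noise between genes, whereas 9 genes were called in the real data. The rates may thus be too high for the real test. Positions and protein identities come from the GENCODE M1 annotation of mm9, and promoters from RefSeq, which matched 6 of 7 coronins. Testk1, Testk2 and Pdxp of the cofilin list had no matching row, so 11 of 14 had an ID. Named genes were the coronins, the 10 genes most like Coro2a by either measure, the 3 most like each other coronin, and the 2 members of each partner list with the lowest p. Arpc1b and Limk1 were named after their values were seen. Some genes that this rule names are not reported here. The members and lists were chosen with earlier results of these data known. Alternatives were other pseudocounts, filters, scalings and moderation, and each tumor left out. Table steps ran in Python 3.11.15 with pandas 2.3.3, numpy 2.4.6 and Biopython 1.88.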

Additional observations from a re-analysis of the deposited data

How the results depend on the processing

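The Coro2a difference kept its sign under every alternative that could change its value. It ran from -2.75 to -2.06 with 1 tumor left out and was -3.12 without tumors 1, 3 and 6. Because Coro2a was chosen from this contrast and its genotypes do not overlap, leaving out tumors could not turn the sign. Nothing is read from that result. The count of the other 6 coronins past the threshold was 0 under every alternative, and so was that of the partner genes. The sign of the smallest differences was not settled. The Coro6 difference turned to 0.027 with a pseudocount of 0.1, to 0.011 with array weights and to 0.90 without tumors 1, 3 and 6 (chosen after seeing the data), and ran from -0.56 to 0.71 with 1 tumor left out. The Coro2b difference turned to -0.049 with a pseudocount of 5, to -0.017 with TPM rescaled without abundant gene groups and to -0.072 with array weights, and ran from -0.30 to 0.50 with 1 tumor left out. With 1 tumor left out the difference ran from -0.035 to 0.26 for Coro1b, and the correlation of Coro2a ran from -0.52 to 0.56 with the milk protein score and from -0.31 to 0.0014 with the luminal epithelial score, and that of Coro6 with the skeletal muscle score from -0.47 to 0.0015. The number of coronin and marker pairs past the threshold ran from 0 to 3 with 1 tumor left out, against 2 with all 8; with 7 tumors fewer samples enter each test. The cause of the other changes was not tested. No paired analysis was possible because the groups share no replicate number. Depth is unknown, so its limit on the low levels of Coro2b and Coro6 cannot be given.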
